A study of Mus musculus with 6 samples.

Results

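The genes examined here are 10 members of the AP-1 transcription factor family and of the immediate early response: Fos, Fosb, Fosl1, Fosl2, Jun, Junb, Jund, Atf3, Egr1 and Zfp36. They were taken by symbol from the 18617 named genes of an array comparison of mouse skin, and all 10 were measured, each by 1 probe. The study compared total RNA from skin of 3 wild-type (WT) mice and 3 mice carrying the LynDN transgene, which the series title writes as LynDeltaN. Lyn is a Src family tyrosine kinase. LynDN mice 1, 2 and 3 were set against WT mice 1, 3 and 2, called pairs 1, 2 and 3 here, each on a dye swap of 2 two-colour arrays (Cy3 and Cy5), 6 arrays in total. The sources used here give no strain, sex, age or skin site, nor the promoter that drives the transgene.

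AP-1 is a dimer of basic leucine zipper proteins: Fos proteins cannot bind DNA as homodimers and mostly pair with a Jun protein, whereas Jun proteins can also pair among themselves. Fos, Jun, Junb, Egr1 and Zfp36 are textbook immediate early genes, transcribed within minutes of growth factor, cytokine or stress signals through MAP kinases without new protein synthesis, and their mRNAs decay fast. In epidermis AP-1 dimers act on genes of differentiation, wound repair and inflammation, and loss of Jun and Junb in mouse epidermis is a known model of psoriasis-like disease.

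The promoters of Fos, Fosb and Zfp36 are shown because Fos and Zfp36 had 2 of the 3 highest mean ratios among the members, while Fosb, a close relative of Fos, lay near 0. Each is the 250 bases before the RefSeq transcription start in GRCm38.p6, 5′ to 3′ on the gene's own strand. Fos lies at chr12:85473640-85473889 on the plus strand, Fosb at chr7:19310046-19310295 on the minus strand and Zfp36 at chr7:28379229-28379478 on the minus strand. Capitals mark the core of the cAMP response element (TGACG), the TATA box (TATAAA) and the CArG box bound by serum response factor (SRF), each searched on both strands.
Fos: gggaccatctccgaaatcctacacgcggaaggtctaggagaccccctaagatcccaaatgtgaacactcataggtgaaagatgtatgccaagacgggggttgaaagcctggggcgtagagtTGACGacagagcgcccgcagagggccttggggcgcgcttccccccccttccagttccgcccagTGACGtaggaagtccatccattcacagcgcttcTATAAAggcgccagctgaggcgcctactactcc
Fosb: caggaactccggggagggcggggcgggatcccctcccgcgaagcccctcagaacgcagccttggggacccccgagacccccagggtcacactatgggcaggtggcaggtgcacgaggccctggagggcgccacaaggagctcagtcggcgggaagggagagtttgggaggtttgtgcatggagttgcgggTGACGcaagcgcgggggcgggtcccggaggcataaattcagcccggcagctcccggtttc
Zfp36: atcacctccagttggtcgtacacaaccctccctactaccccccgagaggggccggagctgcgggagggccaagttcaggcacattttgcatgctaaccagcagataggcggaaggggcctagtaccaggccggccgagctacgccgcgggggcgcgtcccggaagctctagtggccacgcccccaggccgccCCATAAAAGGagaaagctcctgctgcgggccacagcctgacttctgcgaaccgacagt

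Counted back from the start site, Fos had TGACG at -129 to -125 and at -66 to -62 and TATAAA at -33 to -28. Fosb had TGACG at -60 to -56. Zfp36 had a CArG box at -58 to -49, which shared 1 base with a match to GGGCGG, the binding sequence of Sp1, on the other strand. RefSeq promoters were used for 8 of the 10 members. Fosl1 and Egr1 were left out, so the counts that follow say nothing about their promoters. Of these, 4 held TGACG (Atf3, Fos, Fosb and Junb), 1 the CArG box, 1 TATAAA, 6 GGGCGG and 0 the AP-1 site TGANTCA. Among all 32851 promoters of the same length the shares were 17.8% for TGACG, 1.47% for the CArG box, 12.4% for TATAAA, 32.7% for GGGCGG and 6.75% for TGANTCA. These matches describe the letters of these 250 bases only. Sites further upstream were not searched, so a motif absent here may still lie there.

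The deposited values are log ratios of the 2 genotypes, from -6.34 to 6.16 over 25344 probes, taken here as base 2. The numerator is not stated, so a positive or negative value names a side and not a genotype: if WT were the numerator, every sign below would turn at once. A ratio carries no level, so the labelled tissue could not be checked against its marker genes, members cannot be ranked by abundance, and fewer cells of a type cannot be told apart from less RNA per cell. The arrays of a dye swap were averaged, which left 3 pair values per gene (n = 3), and the mean of these was tested with limma over 22879 rows. The number of arrays limits the precision. Pair 1 stood apart in sex-linked genes: the log2 ratio of the Y-linked Eif2s3y was 3.50 there, -0.0040 in pair 2 and 0.03 in pair 3, and the part of sex in the values below was not tested. Over all rows the arrays of pair 1 also had a narrower spread. Their SDs were 0.258 and 0.274, beside 0.333 to 0.36 on the arrays of pairs 2 and 3. The part of this spread in the order of the pairs below was not tested.

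Of the 10 genes Fos, Fosl1, Zfp36 and Egr1 had the highest mean log2 ratios, and the other 6 lay closer to 0. A higher mean was found in 1.79% of all rows for Fos, 1.81% for Fosl1, 1.98% for Zfp36 and 4.51% for Egr1. Their mean ratios ran from -0.14 for Jund to 0.47 for Fos, or 0.909-fold to 1.38-fold, and 8 were positive and 2 negative, where 43.9% of all rows were positive. The median over the members was 0.10, beside -0.01 over all rows tested. In pairs 1, 2 and 3 the median over the members was 0.04, 0.06 and 0.19. In limma with Benjamini-Hochberg adjustment over all rows, 0 of 10 passed 0.05, where 0.0175% of all rows passed. At an unadjusted p under 0.05 there were 2 members, Zfp36 and Fosl1, beside 12.3% of all rows. A fit of the 6 arrays that took the pair as a random block passed 0 of 10, beside 1.06% of all rows. That fit applied a common correlation of 0.151 to every row, so the arrays of a pair counted as nearly separate. Where pairs lie apart and their arrays close together, as for Fos and Fosl1, its p can be too small, here and below. None of the 10 reached a mean ratio of 2-fold (0 of 10, beside 0.599% of all rows). Only Fosl1 had the same sign on all 6 arrays, which 8.03% of all rows had, 3.72% with a positive one. Positive values in all 3 pairs were found for 3 members (Fosl1, Jun and Zfp36; 15.5% of all rows) and negative values in all 3 pairs for 0 (20.0% of all rows).

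**Figure D1:**
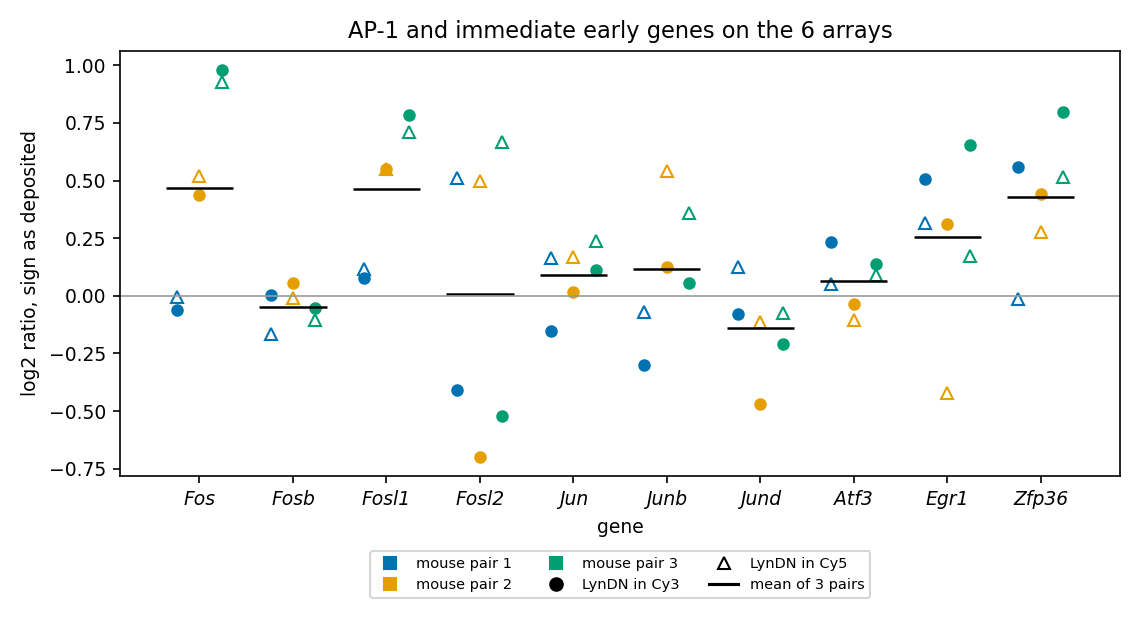
Log2 ratio of each of the 10 genes (vertical axis, sign as deposited) on the 6 arrays, with colour for the mouse pair, filled circles for LynDN in Cy3, open triangles for LynDN in Cy5, and a bar at the mean of the 3 pair values. Fos and Fosl1 have their 2 arrays of a pair close together and their pairs apart, while the Fosl2 circles lie below 0 and its triangles above 0.

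Fos, the founding member of the family, differed between pairs and hardly at all between the arrays of a pair. With the array that had LynDN in Cy3 named first, here and for the genes that follow, its log2 ratios were -0.06 and -0.0060 in pair 1, 0.44 and 0.52 in pair 2, with 0.98 and 0.93 in pair 3. Pair 1 was thus at 0 and pair 3 the highest, and the 3 pairs did not overlap. The mean was 0.47 ± 0.49 (SD, n = 3), with a 95% interval of -0.02 to 0.95, and the limma adjusted p was 0.416. The interval comes from the moderated fit and is not adjusted for the number of rows.

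Fosl1 encodes Fra-1, a Fos protein without a strong transactivation domain that is common in migrating and wounded keratinocytes. It had 0.08 and 0.12 in pair 1, 0.55 and 0.55 in pair 2, with 0.79 and 0.71 in pair 3. All 6 arrays were positive, and as for Fos pair 1 was the lowest and pair 3 the highest. The mean was 0.46 ± 0.33 (SD, n = 3; 95% interval 0.12 to 0.80), with a limma adjusted p of 0.322. With the pair as a block, the adjusted p was 0.0989. Without pair 1, so on the values of pairs 2 and 3 alone, the mean was 0.65. Fosl1 passed there with a limma adjusted p of 0.0189, in a fit where 4.88% of all rows passed. It was the only member to pass under any alternative run. Without pair 2 and without pair 3 its limma adjusted p was 0.819 and 0.904. Over its alternatives the adjusted p ranged from 0.0189 to 0.904.

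Fosb, which is best known as an inducible Fos protein of neurons and bone, lay near 0 on every array. Its array values ran from -0.17 to 0.05, and both signs occurred. The mean was -0.05 ± 0.06 (SD, n = 3; 95% interval -0.18 to 0.09; limma adjusted p = 0.753). Its pair values spread over 0.10, less than in 79.5% of all rows, where those of Fos spread over 0.99, more than in all but 2.03%.

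Fosl2, which encodes the Fos protein Fra-2, took opposite signs in the 2 dye orientations. With LynDN in Cy3 its log2 ratios were -0.41, -0.70 and -0.52 in pairs 1, 2 and 3, and with LynDN in Cy5 they were 0.51, 0.50 and 0.67. The orientations did not overlap in any pair. Averaged within pairs these values cancelled to 0.05, -0.10 and 0.07, so the mean of 0.0080 ± 0.09 (SD, n = 3; limma adjusted p = 0.967) leaves out gaps of 0.92, 1.19 and 1.19 between the 2 arrays of pairs 1, 2 and 3. The difference of the orientations, Cy5 minus Cy3, was 1.10 ± 0.16 (SD, n = 3). It passed a limma test of that difference, added after the values were seen, with an adjusted p of 0.0236, beside 0.573% of all rows. An absolute difference larger than this was found in 0.433% of rows. Orientations on opposite sides of 0 without overlap were common, at 11.4% of all rows, and Fosl2 was the only member with them.

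**Figure D2:**
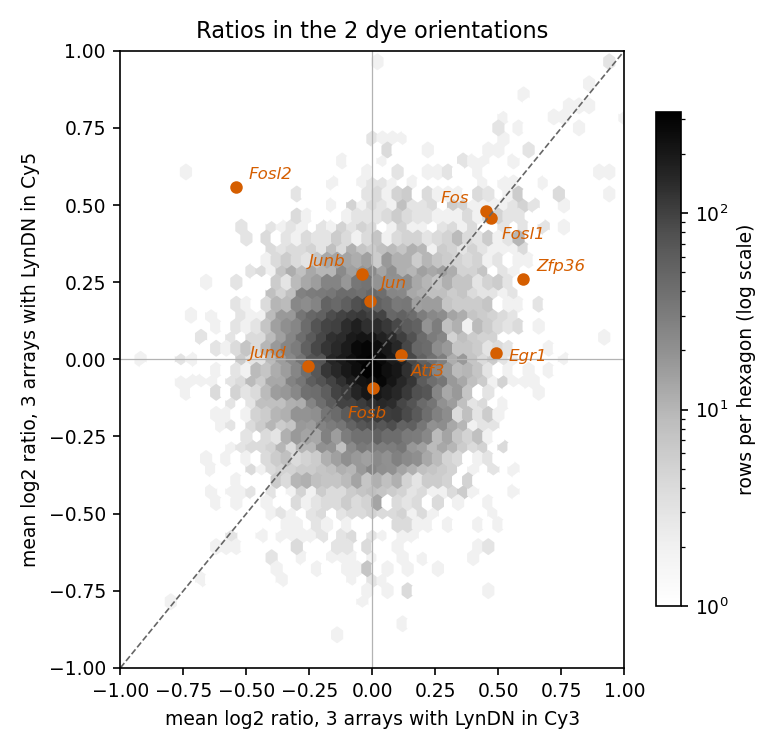
Mean log2 ratio over the 3 arrays with LynDN in Cy3 (horizontal axis) and over the 3 arrays with LynDN in Cy5 (vertical axis), for all rows between -1 and 1 in grey hexagons (log scale of rows per hexagon) and for the 10 genes in orange. Fos and Fosl1 lie on the dashed line of equal values near 0.46, Egr1 and Zfp36 lie below it, and Fosl2 lies far above it at -0.54 and 0.56.

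The genes of the Jun proteins, the main partners of Fos, had means closer to 0 than Fos and Fosl1. Jun had -0.15 and 0.16 in pair 1, 0.02 and 0.17 in pair 2, with 0.11 and 0.24 in pair 3, so that 5 of 6 arrays were positive. Its mean was 0.09 ± 0.09 (SD, n = 3; 95% interval -0.06 to 0.24; limma adjusted p = 0.570). Junb, which often restrains Jun and whose loss in epidermis is linked to skin inflammation, had -0.30 and -0.07 in pair 1, 0.12 and 0.54 in pair 2, with 0.06 and 0.36 in pair 3. Pair 1 was negative on both arrays and pairs 2 and 3 positive on theirs. The pair values of Junb spread over 0.52, and a larger spread was found in 8.48% of all rows. The mean of Junb was 0.12 ± 0.27 (SD, n = 3; 95% interval -0.16 to 0.40; limma adjusted p = 0.698). Within each pair the array with LynDN in Cy5 was the higher one, by 0.23, 0.42 and 0.30.

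Jund, the Jun protein expressed most steadily in resting cells, had the lowest mean of the 10 genes. It had -0.08 and 0.12 in pair 1, -0.47 and -0.12 in pair 2, with -0.21 and -0.07 in pair 3, and 5 of 6 arrays were negative. The mean was -0.14 ± 0.16 (SD, n = 3; 95% interval -0.33 to 0.06; limma adjusted p = 0.522). For all 3 Jun genes the array with LynDN in Cy5 gave the higher value in each pair, with mean differences of 0.20 for Jun, 0.32 for Junb and 0.23 for Jund. None of these 3 differences passed the limma test of the orientations (adjusted p = 0.299, 0.153 and 0.247).

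Atf3, a stress-induced basic leucine zipper protein that pairs with Jun proteins, was near 0 in each pair. It had 0.23 and 0.05 in pair 1, -0.03 and -0.10 in pair 2, with 0.14 and 0.09 in pair 3. The mean was 0.06 ± 0.12 (SD, n = 3; 95% interval -0.10 to 0.23; limma adjusted p = 0.727).

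Egr1, a zinc finger transcription factor induced together with Fos, was positive on 5 of 6 arrays, and its arrays disagreed. It had 0.51 and 0.31 in pair 1, 0.31 and -0.42 in pair 2, with 0.65 and 0.17 in pair 3. The array with LynDN in Cy3 was the higher one in every pair, and the means were 0.49 in that orientation and 0.02 in the other. The difference of the orientations, -0.47 ± 0.27 (SD, n = 3), did not pass the limma test (adjusted p = 0.127). The mean over the pairs was 0.26 ± 0.27 (SD, n = 3; 95% interval -0.03 to 0.54; limma adjusted p = 0.438). Unlike Fos and Fosl1, Egr1 was as high in pair 1 as in pair 3, with pair values of 0.41 in both.

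Zfp36 encodes tristetraprolin, an RNA-binding protein that speeds the decay of cytokine mRNAs with AU-rich elements, and it had the smallest p of the 10 genes. It had 0.56 and -0.01 in pair 1, 0.44 and 0.28 in pair 2, with 0.80 and 0.52 in pair 3. All 3 pair values were positive, at 0.27, 0.36 and 0.66, and 5 of 6 arrays were. The mean was 0.43 ± 0.20 (SD, n = 3; 95% interval 0.20 to 0.66), with a limma adjusted p of 0.278 on the pair values and 0.0655 with the pair as a block. Its arrays with LynDN in Cy3 had a mean of 0.60 and those with LynDN in Cy5 had 0.26.

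In the order of mean ratios, Fos, Fosl1 and Zfp36 came first at 0.47, 0.46 and 0.43, and their pair values overlapped. Egr1 followed at 0.26 and overlapped with all 3. The other 6 genes had means from -0.14 to 0.12. By Euclidean distance over the 6 array values, the 5 named genes nearest to Zfp36 were Scnn1a (0.295), Ly6e (0.318), Hopx (0.330), Cyp51 (0.351) and Atp6v1b2 (0.368). Like Zfp36 they were higher in pair 3 than in pair 1, but they were chosen by these same values, so this likeness adds nothing. Scnn1a, a subunit of the epithelial sodium channel, had pair values of 0.12, 0.41 and 0.55.

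Fos and Fosl1 had dye-swap arrays that lay close together and mouse pairs that lay apart. The largest gap between the 2 arrays of any pair was 0.08 for Fos and 0.07 for Fosl1, where the median row had 0.34, and a smaller gap was found in 1.95% and 1.53% of rows. The range of the 3 pair values was 0.99 and 0.65, where the median row had 0.19. The same order of pairs, with pair 1 lowest and pair 3 highest, occurred in Zfp36 and Jun among the members. The remaining members had other orders, and the share of all rows with this order was not counted.

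**Figure D3:**
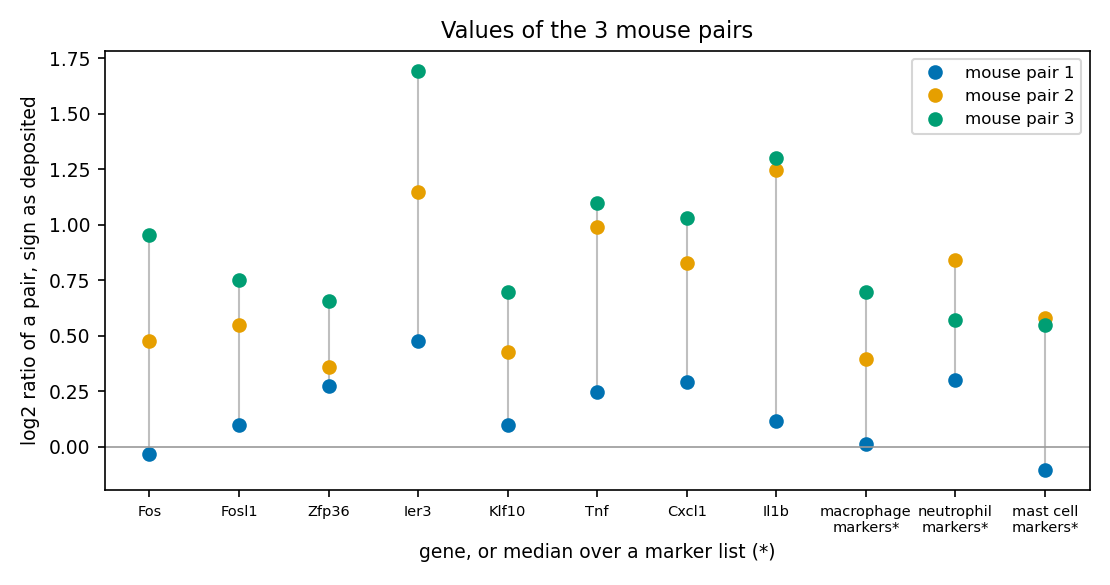
Log2 ratio of each mouse pair (vertical axis, sign as deposited; 1 point per pair, each a mean of 2 arrays) for Fos, Fosl1, Zfp36 and 5 genes of the related lists, and the median of each pair over macrophage, neutrophil and mast cell markers. Pair 1 is the lowest point in every column shown, but the columns are a selection and the share of all rows with pair 1 lowest was not counted. Other list genes had other orders. In pairs 1, 2 and 3 Gadd45g had -0.08, -0.34 and -0.35, and S100a9 had 5.65, 5.35 and 5.61. Of the members not shown, Fosl2, Jund, Atf3 and Egr1 had pair 2 lowest, and Fosb, Jun and Junb had pair 1 lowest.

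Marker lists of myeloid cells were also lowest in pair 1. All 6 measured macrophage markers had a positive mean, with medians of 0.01, 0.40 and 0.70 in pairs 1, 2 and 3, and 0 of 6 passed in limma on the pair values, with 3 of 6 at an unadjusted p under 0.05 (12.3% of all rows) and 0 with the block (1.06% of all rows). Mast cell markers (5 measured) had medians of -0.11, 0.58 and 0.55, and neutrophil markers (7 measured, S100a8 and S100a9 among them, which keratinocytes also make) had 0.30, 0.84 and 0.57. Pair 1 also lay apart in lists with negative medians in the other pairs: skeletal muscle markers (6 measured) had 0.03, -0.39 and -0.69, adipocyte markers (4 measured) had 0.09, -0.58 and -0.36, and melanocyte markers (5 measured) had 0.30, -0.67 and -0.54. Fibroblast markers (6 measured) had -0.23, 0.01 and -0.07. Of the 4 keratinocyte markers 2 were positive and 2 negative, with 0.05, -0.03 and -0.47 as medians. The medians of endothelial and T cell markers (5 and 6 measured) lay between -0.10 and 0.06 in each pair. Myeloid cells also express Fos, Junb, Egr1 and Zfp36, and the part of cell composition in the pair values of these genes was not tested.

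Other basic leucine zipper factors were nearer to 0 than Fos and Fosl1. Of 22 measured genes (Maf, Batf, Atf, Creb and Cebp genes among them), 14 were positive, the median was 0.04, and 0 passed in limma in either direction on the pair values or with the block, with 3 at an unadjusted p under 0.05, a share near the 12.3% of all rows. The smallest p belonged to Cebpd, an acute-phase factor gene, with 0.30 ± 0.15 (SD, n = 3; adjusted p = 0.292) and 6 of 6 arrays positive. Cebpb, its close relative, had 0.25 ± 0.16, Batf2 had 0.18 ± 0.05 and the small Maf gene Maff had 0.15 ± 0.11 (SD, n = 3). Without pair 1, Cebpd passed with 0.38 (limma adjusted p = 0.0413), in a fit where 3.22% of all rows passed positive. Without pair 2 and without pair 3, 0 genes of this list passed, in fits where 2 and 4 of all rows passed.

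Of 37 other measured immediate early genes, 28 were positive and the median was 0.10, with 0.0073, 0.06 and 0.21 in pairs 1, 2 and 3. In limma 0 passed on the pair values, with 8 at an unadjusted p under 0.05 (12.3% of all rows), and 1 passed with the block, where 0.603% of all rows passed positive. That gene was Ier3, an anti-apoptotic early response gene, with 1.11 ± 0.61 (SD, n = 3; adjusted p = 0.278 on the pair values and 0.0492 with the block). Its pair values were 0.48, 1.15 and 1.69, so pair 1 was again the lowest. Klf10, a TGF-beta-inducible zinc finger gene, had 0.41 ± 0.30, and Plk2, a polo-like kinase gene, had 0.29 ± 0.18, both positive on 6 of 6 arrays. Gadd45g, a growth arrest gene, had -0.26 ± 0.15 and was negative on 6 of 6 arrays. Without pair 1, 5 genes of this list passed positive (Ier3, Klf4, Klf10, Dusp1 and Csrnp1), beside 3.22% of all rows, and 0 passed negative, beside 1.67%. Leaving out pair 2 or pair 3 instead passed 0 of the list, in fits where 2 and 4 of all rows passed.

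The MAP kinase and SRF genes upstream of the immediate early response were close to 0. Of 21 measured, 12 were positive, the median was 0.03, and 0 passed in limma on the pair values or with the block, with 2 at an unadjusted p under 0.05, beside 12.3% of all rows. Both of these were negative: Map2k6, a kinase of the p38 branch, had -0.30 ± 0.14, and Mapk12, which encodes a p38 isoform abundant in skeletal muscle, had -0.26 ± 0.17 (SD, n = 3; adjusted p = 0.282 and 0.335). Map2k6 and Mapk12 passed without pair 1 (limma adjusted p = 0.0394 and 0.0495), beside 1.67% of all rows that passed negative. Leaving out pair 2 or pair 3 instead passed 0 of the list, in fits where 2 and 4 of all rows passed. Elk3, a partner of SRF, had 0.10 ± 0.03, and Map2k1, a kinase of the ERK branch, had 0.21 ± 0.28. The skeletal muscle markers given above lay on the same side in pairs 2 and 3, and their part in the values of Mapk12 was not tested.

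Genes known as AP-1 targets in skin ran from -1.67 for Lor, which encodes loricrin, to 5.54 for S100a9. Of 31 measured, 23 were positive, with a median of 0.10, and 3 passed in limma, all positive: the alarmins S100a9 with 5.54 ± 0.16 and S100a8 with 4.61 ± 0.12, and the stress keratin Krt16 with 2.49 ± 0.16 (SD, n = 3). The adjusted p was 0.000149 for both alarmins and 0.00311 for Krt16. Of all rows 0.0175% passed, but this list was written with these genes' results known and gives no independent support. Sprr2a1, a cornified envelope gene, had 2.48 ± 0.41 (adjusted p = 0.0926). With the block 9 passed positive and 1 negative, the latter Lor (limma adjusted p = 0.00544), beside 0.603% of all rows positive and 0.459% negative. Without pair 1, 12 passed positive and 1 negative, beside 3.22% and 1.67% of all rows, and without pair 2, 2 passed positive, beside 0.00874% of all rows. Without pair 3, 3 passed positive, in a fit where 4 of all rows passed. S100a9 had 5.65, 5.35 and 5.61 in pairs 1, 2 and 3, where passing on the pair values itself favours genes with little spread. Of the genes that passed with the block but not on the pair values, Krt6b, a stress keratin gene, had 3.44, 5.34 and 5.68. The EGFR ligand gene Hbegf, another of these, had 0.42, 1.61 and 1.48, so that pair 1 was the lowest for both, as for Fos and Fosl1. Passing with the block but not on the pair values itself favours genes whose pairs lie apart, so this likeness adds no support.

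All 18 measured mRNAs known as targets of the Zfp36 protein had a positive mean ratio, the same side as Zfp36, beside 43.9% of all rows. The lowest of these means was 0.02 for Lif, and 7 of 18 were positive in all 3 pairs, beside 15.5% of all rows. As the lists were chosen with earlier results of these data known, these counts give no independent support. Ier3, Myc, Ptgs2 and Plk3 stand in this list and in that of the immediate early genes. The median was 0.15, with -0.0018, 0.27 and 0.25 in pairs 1, 2 and 3. In limma 0 passed on the pair values, with 7 at an unadjusted p under 0.05 (12.3% of all rows), and 2 passed positive with the block (0.603% of all rows), Ier3 and the neutrophil-attracting chemokine Cxcl1. Cxcl1 had pair values of 0.29, 0.83 and 1.03 and a mean of 0.72 ± 0.38 (SD, n = 3; adjusted p = 0.278, and 0.0495 with the block). The cytokine gene Tnf, the classic Zfp36 target, had 0.25, 0.99 and 1.10, with a mean of 0.78 ± 0.46, and Il1b had 0.11, 1.25 and 1.30, with a mean of 0.89 ± 0.67 (SD, n = 3). Tnf and Il1b were positive on 6 of 6 arrays, and neither passed on the pair values (adjusted p = 0.278 and 0.322) or with the block (0.0663 and 0.0939). Without pair 2 and without pair 3, 0 of the list passed, in fits where 2 and 4 of all rows passed. Without pair 1, 6 passed positive, beside 3.22% of all rows: Ier3, Cxcl1, Tnf, Il1b, Cxcl2 and Ccl2. Several of these genes are made by macrophages and neutrophils, whose marker medians are given above.

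**Figure D4:**
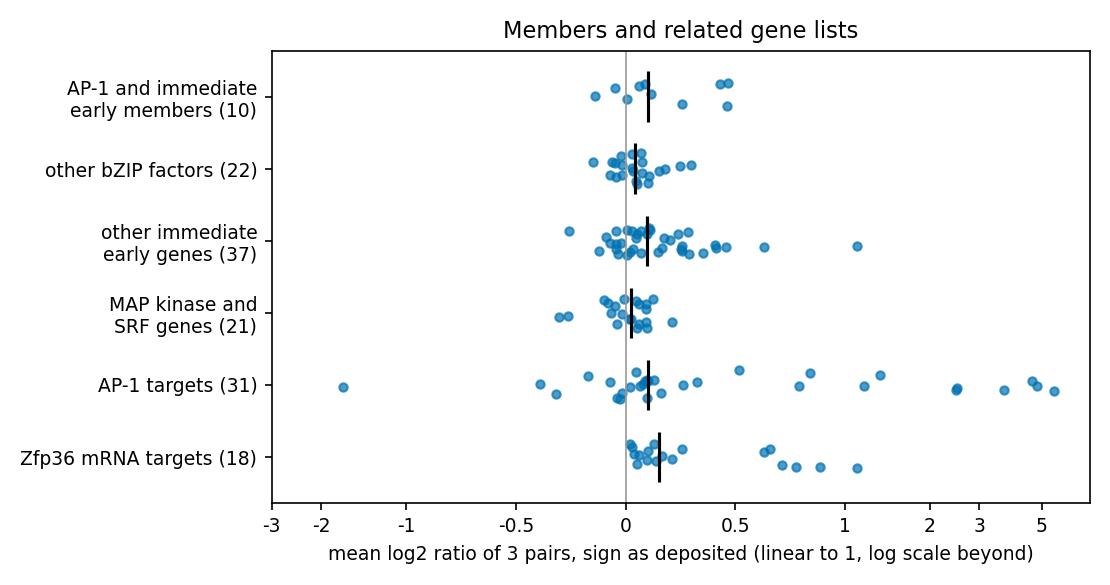
Mean log2 ratio over the 3 mouse pairs (horizontal axis, sign as deposited, linear to 1 and logarithmic beyond) for the 10 members and the 5 related gene lists, with the number of measured genes in parentheses, 1 point per gene and a bar at the median. The members stay within -0.14 and 0.47, while AP-1 targets reach 5.54 and the 18 Zfp36 targets all lie above 0.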

How the data were processed

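The authors deposited a log ratio for each probe on each array, used here as log2. Per the labels, channel 1 is Cy3 and channel 2 Cy5 on all 6 arrays. The sources used here give no scanner, background correction or normalization, and state neither numerator nor log base. Base 2 was assumed from the range. Every column has a mean of 0, and medians lie between -0.017 and 0.0010. Rows from probe 21000 on, among them Jun, Jund and Atf3, carry at most 3 significant digits. One array has another date in the labels than the other 5.

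Probes with 1 symbol in the platform annotation (21082 of 25344) were averaged per symbol and array. Both arrays of a pair hold RNA of the same 2 mice, per the labels, and were averaged to pair values. The departure of their mean from 0 was tested (limma 3.58.1, R 4.3.3), with Benjamini-Hochberg adjustment over 22879 rows at 0.05, and checked on simulated data. The block alternative used duplicateCorrelation (consensus correlation 0.151) with a dye term. SDs cover 3 pair values and leave out differences within a dye swap. Named list genes are those past the threshold, then the 4 with the smallest p of each list, and some, not all, of the genes that passed under a named alternative. Members and lists were chosen with earlier results of these data known. Promoters are from RefSeq (GRCm38.p6). Figures were drawn with matplotlib 3.10.9.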

Additional observations from a re-analysis of the deposited data

Results flagged for a closer look

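Fosl2 differed between the dye orientations: all 3 arrays with LynDN in Cy3 were negative, all 3 with LynDN in Cy5 were positive, and the Cy5 minus Cy3 difference of 1.10 passed the limma test of that difference (adjusted p = 0.0236). Each orientation holds 3 arrays, too few for a check of single arrays that stand apart.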

How the results depend on the processing

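Of 120 values of single members over 12 alternatives each, 112 kept their direction and side of the threshold. Fosl1 alone came to pass, without pair 1 (0.65). Fosl2, at 0.0080, took -0.54 with LynDN in Cy3 alone, -0.19 without the array of another date, and -0.025 to 0.062 when a pair was left out. Without the array of another date, pair 2 keeps only its array with LynDN in Cy3, where Fosl2 had -0.70, so date and dye orientation change together. With LynDN in Cy3 alone, Fosb had 0.0012, Jun -0.0082 and Junb -0.040. The count of members that passed was 0 to 1 when a pair was left out. The median over the members was 0.23 with LynDN in Cy5 alone.

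The count of all rows that passed, 4 positive and 0 negative, was 243 with the replicate block (138 positive, 105 negative), 79 with quantile normalization (59 and 20), 54 with LynDN in Cy3 alone (42 and 12), 24 with LynDN in Cy5 alone (12 and 12), and 0 without moderation. With every probe as a row, 1 negative row passed. Leaving out a pair gave 2 to 1117 (2 to 736 positive, 0 to 381 negative). The cause was not tested.

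AP-1 targets that passed positive, 3, were 9 with the replicate block, 7 with quantile normalization, 6 in each dye orientation alone, 0 without moderation and 2 to 12 when a pair was left out. On the negative side 1 passed with the block, with quantile normalization and with LynDN in Cy5 alone, and 0 to 1 when a pair was left out. Of Zfp36 targets 2 passed with the block and 0 to 6 when a pair was left out, of other immediate early genes 1 and 0 to 5. When a pair was left out, 0 to 1 other leucine zipper genes passed positive, and 0 to 2 MAP kinase and SRF genes negative. Signal over background was not used here.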
